A study of Mus musculus with 12 samples.

Results

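The collagen chain genes were followed here through C2C12 cells in which Bach1 was silenced or not and which were or were not induced to differentiate. They were taken as every probe of the deposited array table whose gene symbol is Col, a number, the letter a and a number. This gave 91 probes of 44 genes, out of 56605 probes of 27306 named genes on the array. C2C12 is a mouse myoblast line from C3H muscle that fuses into myotubes when confluent cultures are moved from fetal bovine serum to horse serum. RNA was measured on 12 one-colour arrays in 4 groups of 3. The groups were cells transfected with control siRNA (siControl) before induction (day 0), siControl cells at day 2 of differentiation, cells transfected with an siRNA against Bach1 (siBach1) at day 0, and siBach1 cells at day 2. All 4 groups were transfected, and untransfected cells are not analysed here. A single Bach1 siRNA was used, called siBach1 in the labels and siBach1-2 in the methods, so that loss of Bach1 and other effects of that siRNA cannot be told apart. The paper's methods describe the array experiments as done in triplicate. They do not state that the 3 arrays of a group came from separate cultures. The p-values therefore measure only the spread between these arrays, and their number limits the precision.

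Collagens are extracellular proteins built from 3 chains wound into a triple helix, and each chain has a gene of its own. Fibrillar chains form the banded fibrils of connective tissue, in which types I and III are the bulk, while types V and XI lie within fibrils and set their diameter. Type IV chains form the sheet-like network of the basement membrane that surrounds each muscle fibre. The other collagens include the beaded filaments of type VI, which anchor the muscle basement membrane to its surroundings, the fibril-associated collagens with interrupted helices (FACIT), the anchoring fibrils of type VII and short-chain, membrane-spanning and multiplexin types. Bach1 is a haem-regulated transcription factor that pairs with small Maf proteins and represses genes of the oxidative stress response such as Hmox1.

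Values are log2 signals minus the 75th percentile of the same array, so that 0 is the level below which 75 in 100 of the array's probes lie. Levels of different probes cannot be set against each other on this scale, because probes differ in brightness. Single genes were therefore compared only within a probe, while the marker sums below add signals over probes. Testing was limited to probes that the scanner software marked, in at least 1 group, as well above background on each of the 3 arrays. A probe is said to have risen or fallen where its Benjamini-Hochberg adjusted p in limma was under 0.05 over all 29664 probes tested, and to be called where it also changed at least 2-fold. The share of probes well above background ranged from 47.6% to 58.9% of an array, and was lowest in siBach1 day 0 replicate 3. Bach1 itself was lower in all siBach1 arrays than in all siControl arrays of the same day, 3.42-fold at day 0 and 3.91-fold at day 2 on its 1 probe (adjusted p = 1.2e-05 and 1.4e-05). Replicates 1 and 2 of every group were on 1 slide and replicate 3 on another, and each group had its own column of slide positions, so group and column cannot be told apart.

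Of the 91 collagen probes, 37 had the scanner's mark for signal well above background on each of the 12 arrays, 24 on some and 30 on none. The filter passed 47 probes of 29 genes (51.6% of the collagen probes, against 52.4% of all probes). Among the fibrillar genes 17 of 26 probes and 9 of 11 genes were tested, among the basement membrane genes 5 of 9 probes and 4 of 6 genes, and among the other collagens 25 of 56 probes and 16 of 27 genes. The 15 genes without a tested probe were Col24a1 and Col27a1 of the fibrillar class, Col4a3 and Col4a4 of the basement membrane class, and Col6a4, Col6a5, Col6a6, Col8a2, Col9a3, Col15a1, Col19a1, Col20a1, Col23a1, Col25a1 and Col28a1. Of these, Col4a3, Col6a6, Col9a3, Col15a1, Col20a1 and Col25a1 were not well above background on any array. Col15a1 encodes a multiplexin of basement membrane zones that is known from muscle and capillaries, and Col25a1 a membrane-spanning collagen involved in muscle innervation.

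**Figure D1:**
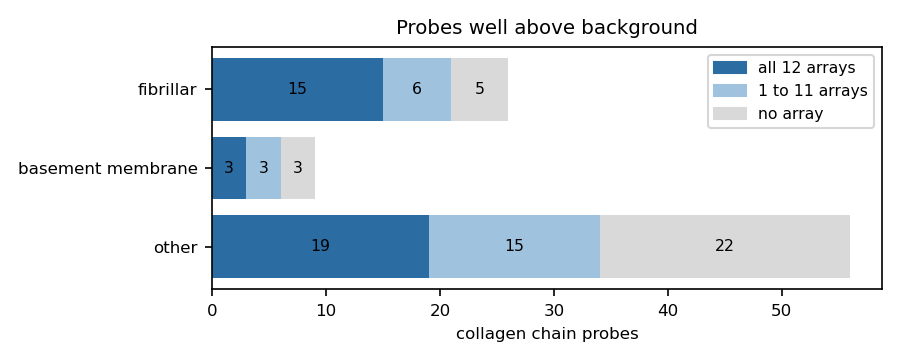
Number of collagen chain probes (x axis) that the scanner marked as well above background on all 12 arrays, on 1 to 11 arrays or on no array, by class. Most fibrillar probes were measured on all arrays (15 of 26), against 3 of 9 basement membrane probes and 19 of 56 other probes.

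The first question was how the collagen chains moved when the cells differentiated. In siControl cells 14 of the 47 tested collagen probes were called higher at day 2 than at day 0 and 3 were called lower, beside 10.5% and 9.46% of all tested probes. In siBach1 cells 16 were called higher and 1 lower, against 10.9% and 9.59% of all. By the adjusted p alone 25 collagen probes rose and 4 fell in siControl cells (24.6% and 28.7% of all probes), and 27 rose and 3 fell in siBach1 cells (23.8% and 32.3%). The median log2 fold change of the tested collagen probes was 0.71 in siControl and 0.81 in siBach1 cells, beside 0.00 and -0.07 over all tested probes. The class medians in siControl cells were 1.27 for the fibrillar, 0.23 for the basement membrane and 0.49 for the other collagens. In siBach1 cells they were 0.92, 0.82 and 0.24. Without siControl day 2 replicate 3 the basement membrane median in siControl cells was 0.08, and without siBach1 day 2 replicate 3 that of the other collagens in siBach1 cells was 0.15. All 17 fibrillar probes had a positive log2 fold change in both series of cells, and 12 of them rose in siControl and 13 in siBach1 cells, while none fell. These medians are descriptions of probes that passed the filter and not of all members. In bulk RNA, fewer cells of a kind and less RNA per cell cannot be told apart.

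Col1a1 and Col1a2 encode the chains of type I collagen, the main fibril of tendon, bone and skin. The brightest Col1a1 probe read 3.12, 3.06 and 3.04 in siControl and 3.21, 2.71 and 3.16 with siBach1 at day 0. At day 2 it read 5.79, 5.62 and 5.51 in siControl and 6.11, 5.9 and 5.88 in siBach1 cells. All 6 arrays of day 2 thus lay above all 6 of day 0. The rise was 2.57 ± 0.14 (SE) on the log2 scale in siControl cells (5.93-fold, adjusted p = 2.3e-07) and 2.94 ± 0.14 in siBach1 cells (7.67-fold, adjusted p = 1.1e-07), and the other 2 tested Col1a1 probes rose by 2.46 and 2.70 in siControl and by 2.81 and 3.27 in siBach1 cells. Col1a2 moved less on its brightest probe, with 6.98, 7.02 and 7.03 in siControl cells at day 0 and 7.83, 7.58 and 7.66 at day 2. Its rise was 0.68 ± 0.09 in siControl (adjusted p = 8.7e-05) and 0.49 ± 0.09 in siBach1 cells (adjusted p = 0.00073), under 2-fold in both. The other 2 tested Col1a2 probes, A_55_P2610616 and A_55_P2715501, changed by 0.13 and 0.13 in siControl and by 0.32 and 0.20 in siBach1 cells and did not pass, but A_55_P2610616 passed in siBach1 cells with the replicate number as a block (adjusted p = 0.032).

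Col3a1, whose type III fibrils accompany type I in elastic tissues, rose on all 3 of its probes. The brightest read 5.85, 6.04 and 5.73 in siControl cells at day 0 and 7.03, 7.25 and 7.17 at day 2, a rise of 1.28 ± 0.09 (2.42-fold, adjusted p = 1.8e-06). In siBach1 cells it went from 6.28, 6.29 and 6.34 to 7.09, 7.11 and 7.18, a rise of 0.82 ± 0.09 (adjusted p = 3.3e-05). The siBach1 arrays lay above the siControl arrays at day 0 and overlapped with them at day 2. The other 2 probes rose by 0.94 and 0.87 in siControl cells and by 0.81 and 0.91 in siBach1 cells.

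The type V chains, which start fibril assembly, rose together. Col5a1 read 4.03, 4.01 and 4.16 in siControl cells at day 0 and 5.44, 5.15 and 5.41 at day 2, and its rise was 1.27 ± 0.11 (2.41-fold, adjusted p = 6.4e-06) in siControl and 1.28 ± 0.11 (2.43-fold, adjusted p = 5.6e-06) in siBach1 cells. The brightest Col5a2 probe rose by 1.39 ± 0.10 (2.63-fold) and 1.77 ± 0.10 (3.42-fold), and the brightest Col5a3 probe by 1.27 ± 0.13 (2.42-fold) and 0.92 ± 0.13 (1.9-fold). The dimmer Col5a2 probe A_55_P2720283 rose by 0.98 and 0.80 (adjusted p = 0.006 and 0.016, the latter up to 0.067 without siBach1 day 0 replicate 1, siBach1 day 0 replicate 2 or siBach1 day 2 replicate 3). The dimmer Col5a3 probe A_52_P503796 was called in siBach1 cells at 1.26 (adjusted p = 0.049) but lost its call without any of 10 of the 12 arrays (all but siControl day 0 replicates 1 and 3, adjusted p up to 0.12), and in siControl cells it changed by 0.79 (adjusted p = 0.2).

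The type XI chain Col11a1, best known from cartilage, was near the background at day 0, being above it by the scanner's mark on 1 of 3 arrays of each group. Its tested probe passed the filter only through the day 2 groups, where it was higher. This probe read -5.28, -4.26 and -4.06 in siControl cells at day 0 and -2.81, -3.55 and -2.64 at day 2. In siBach1 cells it read -4.18, -4.12 and -3.94 at day 0 and -1.62, -2.49 and -1.60 at day 2. The rise was 1.53 ± 0.35 (2.89-fold, adjusted p = 0.004) in siControl and 2.18 ± 0.35 (4.53-fold, adjusted p = 0.00039) in siBach1 cells. Col11a2 changed by 0.39 and 0.40 with a standard error of 0.42 and did not pass.

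Col2a1, the type II chain of cartilage, was chosen for description after its values were seen, because its call changed with the replicate block. It read 1.97 and 2.24 on the first slide and 0.44 on the second in siControl cells at day 0, and 3.5 and 3.77 against 1.96 at day 2. In siBach1 cells it read 2.65, 2.54 and 0.97 at day 0 and 3.65, 3.64 and 2.1 at day 2. Within each slide day 2 was higher than day 0, by 1.53 and 1.52 in siControl and by 1.05 and 1.13 in siBach1 cells. The fit without a block gave 1.52 (adjusted p = 0.086) and 1.08 (adjusted p = 0.21), whereas with the replicate number as a block both were called (adjusted p = 2.5e-06 and 1.3e-05). Of the 4 chondrocyte markers, Acan and Matn1 were not well above background on any array, and the summed signal of all 4 was lower at day 2 in siControl arrays, with 4.59 to 5.74 times the 75th percentile at day 0 and 3.78 to 4.55 at day 2. In siBach1 arrays it was 2.93 to 3.35 and 2.45 to 3.26. Only 1 of the 4 genes had a tested probe, so the sum rests mostly on that gene and is not a reading of all 4.

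The type VI chains did not move as a unit. Col6a1 read 3.65, 3.56 and 3.27 in siControl cells at day 0 and 5.24, 5.52 and 5.19 at day 2, a rise of 1.82 ± 0.19 (3.53-fold, adjusted p = 1.7e-05), and rose by 1.83 ± 0.19 (3.56-fold) in siBach1 cells. The brightest Col6a2 probe went from -0.56, -0.56 and -0.8 to 1.83, 2.13 and 1.72 in siControl cells, a rise of 2.54 ± 0.24 (5.8-fold, adjusted p = 9.3e-06), and rose by 2.63 ± 0.24 (6.18-fold) in siBach1 cells. Col6a3, the largest chain of the same filament, did not share this rise on any of its 3 probes. The brightest read 4.64, 4.72 and 4.79 in siControl cells at day 0 and 4.25, 4.33 and 4.47 at day 2, a fall by 0.37 ± 0.11 on the log2 scale (adjusted p = 0.017) that lost the threshold without siControl day 2 replicate 1 or siControl day 0 replicate 3 (adjusted p up to 0.064). In siBach1 cells it changed by -0.07 ± 0.11 (adjusted p = 0.63). The dimmer probe A_55_P2719394 was called lower in siControl cells at -1.19 ± 0.28 (adjusted p = 0.0041), though under 2-fold without siControl day 0 replicate 3, and fell by 0.98 in siBach1 cells, while A_66_P127268 changed by -0.05 and -0.06. The second Col6a2 probe, A_55_P2733787, rose by 2.03 and 2.22. The third, A_52_P362757, changed by 0.06 with siControl and by 0.74 with siBach1 (adjusted p = 0.049, and 0.071 with the replicate number as a block), and lost the threshold in 9 of the 12 fits without 1 array, all but those without siControl day 0 replicates 2 or 3 or siBach1 day 0 replicate 2 (up to 0.17).

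The stretches of 200 bases just upstream of the Col6a1 and Col6a2 gene models are shown because both genes rose on their brightest probes. Both also lie on the same strand of chromosome 10, with 2 genes between. The stretches are from RefSeq on build GRCm38.p6, written 5′ to 3′ on the gene's strand. Capitals mark a match to any of the motifs searched.
Col6a1, chr10:76726045-76726244, minus strand: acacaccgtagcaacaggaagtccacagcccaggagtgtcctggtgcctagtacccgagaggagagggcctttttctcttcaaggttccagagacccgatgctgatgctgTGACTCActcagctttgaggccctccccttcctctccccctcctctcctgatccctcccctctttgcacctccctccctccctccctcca
Col6a2, chr10:76623631-76623830, minus strand: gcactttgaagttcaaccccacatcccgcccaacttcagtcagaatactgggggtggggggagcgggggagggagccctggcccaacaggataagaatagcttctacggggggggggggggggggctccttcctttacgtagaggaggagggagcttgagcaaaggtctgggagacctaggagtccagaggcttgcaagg
The motifs were TGAGTCA, the core bound by AP-1 and within the element of Maf partners, TGACNNNGC, the antioxidant response element core, the E-box CANNTG, which muscle regulatory factors bind, CCAAT and TATAAA. Both strands were searched, and TGACTCA followed by GC would count for the first and the second motif at once. The RefSeq windows run from 250 bases before to 50 after a start. Of the 38 windows of 35 collagen genes, 1 held TGAGTCA (2.63%, against 5.20% of all 32851 windows), and it was that of Col6a1, in capitals above as it reads on the gene's strand. TGACNNNGC was in 7 of the 38 windows (18.4%, against 12.4% of all), namely those of Col4a2, Col6a2, Col6a5, Col7a1, Col9a2, Col13a1 and Col24a1. In Col6a2 the match was in the window of another start of the gene and not in the stretch shown. That start lies 102640 bases from the Col6a1 start. CANNTG was in 20 (52.6%, against 72.3%), CCAAT in 13 (34.2%, against 37.4%) and TATAAA in 5 (13.2%, against 13.6%). A match is a description of letters and not a binding site. No window was listed for Col1a1, Col2a1, Col4a3, Col5a2, Col9a3, Col12a1, Col14a1, Col22a1 and Col26a1.

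**Figure D2:**
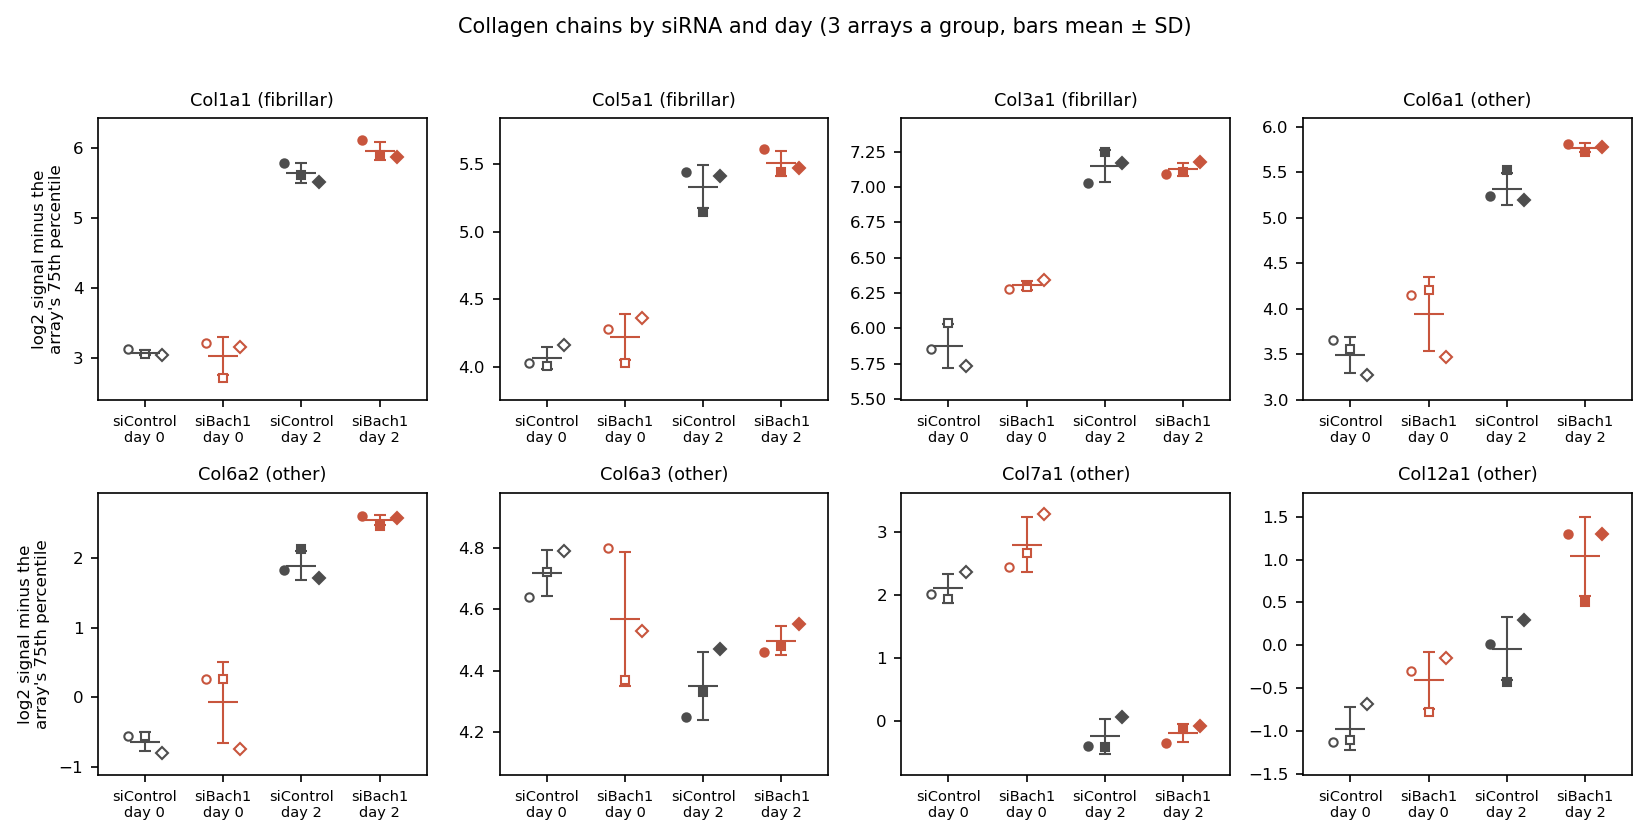
Log2 signal minus the array's 75th percentile (y axis, a scale of its own in each panel) of the brightest probe of 8 chains in siControl (grey) and siBach1 (red) cells at day 0 (open) and day 2 (filled). Circles, squares and diamonds are replicates 1, 2 and 3, and bars are the mean ± SD of 3 arrays. Col1a1, Col5a1, Col3a1, Col6a1, Col6a2 and Col12a1 have higher means at day 2 in both cell series, Col7a1 is lower, and Col6a3 spans from 4.25 to 4.8 over all 12 arrays.

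Col7a1, the chain of the anchoring fibrils beneath epithelia, had the largest fall among the collagens tested. It read 2.02, 1.93 and 2.37 in siControl and 2.44, 2.67 and 3.28 with siBach1 at day 0, then -0.39, -0.41 and 0.07 against -0.35, -0.13 and -0.08 at day 2. The fall was -2.34 ± 0.22 (5.08-fold, adjusted p = 8.4e-06) in siControl and -2.99 ± 0.22 (7.92-fold, adjusted p = 1.7e-06) in siBach1 cells, and no array of day 2 reached the lowest of day 0. The array held 1 probe for this gene. One of 2 tested Col16a1 probes, A_55_P2056744, was also called lower in siControl cells, but it was not well above background on any array at day 2, so that the fall was at least 1.79-fold (adjusted p = 0.0076). This bound is under the 2-fold limit of a call. The probe passed the filter only through the siControl day 0 group, where it was highest. The brighter Col16a1 probe went the other way, by 0.64 ± 0.10 (adjusted p = 0.00034) in siControl and 0.85 ± 0.10 (adjusted p = 4.5e-05) in siBach1 cells. Col16a1 is a FACIT of fibrillar and filament surfaces.

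Col26a1, a chain first described in testis and ovary, rose on 2 of its 3 probes. The probe A_51_P435380 passed the filter only through the day 2 groups. It read -4.38, -4.6 and -5.06 in siControl cells at day 0, where 1 of 3 arrays was well above background, and -1.95, -1.8 and -1.71 at day 2. In siBach1 cells it read -4.39, -3.79 and -4.59 and then -2.75, -2.6 and -2.62. The siBach1 arrays thus lay below all siControl arrays at day 2 and overlapped with them at day 0. The rise was 2.86 ± 0.21 (7.26-fold, adjusted p = 1.8e-06) in siControl and 1.60 ± 0.21 (3.03-fold, adjusted p = 9.3e-05) in siBach1 cells. The brightest Col26a1 probe, A_55_P2098120, rose by 2.06 (4.18-fold) and 1.28 (2.42-fold), and A_66_P100904 by 0.49 in siControl cells (adjusted p = 0.033, lost without siControl day 0 replicate 2, siControl day 2 replicate 2 or siControl day 2 replicate 3, up to 0.12), with -0.11 in siBach1 cells (adjusted p = 0.62).

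The FACIT chain Col12a1, which decorates fibrils at tendon and muscle sheaths, read -1.13, -1.11 and -0.68 in siControl cells at day 0 and 0.01, -0.43 and 0.30 at day 2. Its rise was 0.94 ± 0.27 (adjusted p = 0.013) in siControl and 1.45 ± 0.27 (2.73-fold, adjusted p = 0.00091) in siBach1 cells. The second probe, A_55_P2800119, rose by 0.86 in siControl cells (adjusted p = 0.031, lost without siControl day 0 replicates 1, 2 or 3 or siControl day 2 replicates 1 or 3, up to 0.11) and by 1.59 (3.01-fold) in siBach1 cells. Col8a1, a short chain made by vascular and mesenchymal cells, rose by 0.71 ± 0.19 in siControl cells (adjusted p = 0.0091) and changed by 0.30 ± 0.19 in siBach1 cells (adjusted p = 0.21). Col10a1, the chain of growth plate cartilage, was called higher in siBach1 cells at 1.40 ± 0.52 (adjusted p = 0.041), and was named after its values were seen. It went from 1 array well above background at day 0 to 3 at day 2. The probe passed the filter only through that siBach1 day 2 group, so the size of its rise is not well measured. Col18a1, the heparan sulfate-bearing multiplexin of basement membranes, read between 4.48 and 4.72 in siControl cells at day 0 and between 4.68 and 5.24 at day 2, a change of 0.27 ± 0.16 that did not pass (adjusted p = 0.17).

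Among the basement membrane chains, Col4a5 was the one called with differentiation. Its brightest probe read -0.81, -0.92 and -0.9 in siControl cells at day 0 and 0.38, 0.45 and 0.36 at day 2, a rise of 1.27 ± 0.08 (2.41-fold, adjusted p = 6.4e-07). In siBach1 cells it went from -0.06, -0.11 and 0.08 to 0.91, 0.98 and 1.06, a rise of 1.01 ± 0.08 (2.02-fold, adjusted p = 2.6e-06) that fell under 2-fold without siBach1 day 0 replicate 1, siBach1 day 0 replicate 2 or siBach1 day 2 replicate 3. Col4a1 and Col4a2, the chains of the common type IV network, stayed within 0.08 and 0.03 of day 0 in siControl cells. In siBach1 cells Col4a1 rose by 0.53 ± 0.10 (adjusted p = 0.0011) and Col4a2 changed by -0.05 ± 0.17 (adjusted p = 0.82). Col4a6 changed by 0.23 in siControl cells (adjusted p = 0.39) and rose by 0.82 in siBach1 cells (adjusted p = 0.0067).

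**Figure D3:**
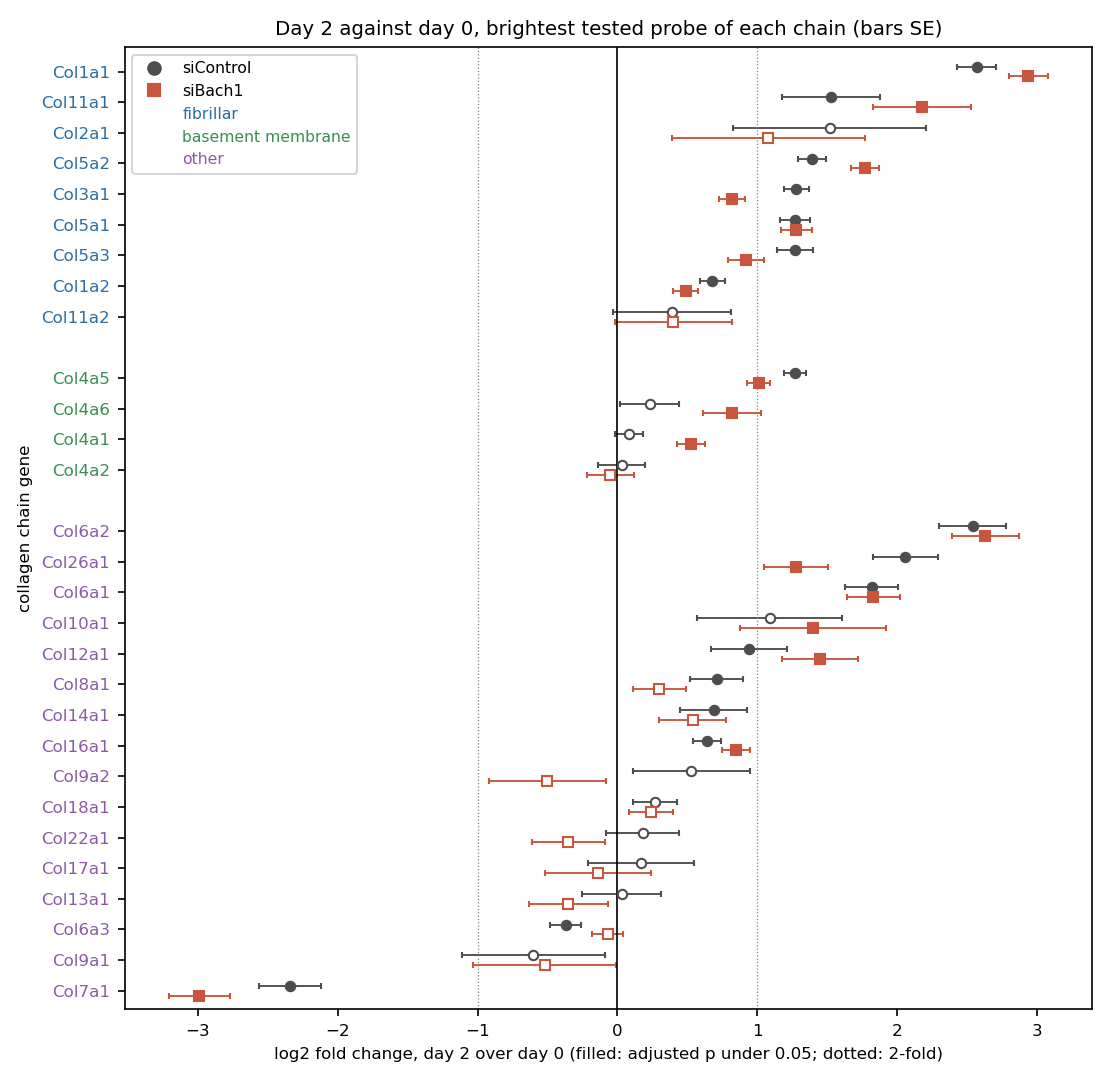
Log2 fold change of day 2 over day 0 (x axis) in siControl (grey circles) and siBach1 (red squares) cells for the brightest tested probe of each of 29 collagen genes, grouped by class. Bars are standard errors, filled symbols passed an adjusted p of 0.05 and dotted lines mark 2-fold. All 9 fibrillar chains lie right of 0, and Col7a1 lies farthest left at -2.34 and -2.99.

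The second question was what Bach1 silencing did to the chains at each day. At day 0, limma called 0 of the 47 collagen probes in either direction, beside 0.809% of all probes higher and 1.98% lower. By the adjusted p alone 10 collagen probes were higher in siBach1 cells and 1 was lower (8.80% and 8.32% of all). At an unadjusted p under 0.05 limma gave 16 higher and 3 lower, of which 0 changed 2-fold. Over all 29664 probes 9231 had such a p in limma in either direction. The methods' t-test at that threshold with the 2-fold limit also gave 0 collagen probes in each direction, beside 233 higher and 584 lower of all probes. At day 2 there were 2 collagen probes called higher and 0 called lower, against 1.52% and 0.651% of all, and 9 were higher and 1 was lower by the adjusted p alone (5.75% and 6.26% of all). At an unadjusted p under 0.05 limma gave 17 higher and 3 lower, of which 3 and 0 changed 2-fold. Over all probes 8094 had such a p in limma in either direction. The methods' t-test with the 2-fold limit gave 2 and 0, beside 520 higher and 215 lower of all probes. The median log2 fold changes at day 0 were 0.43 for the fibrillar, 0.73 for the basement membrane and 0.26 for the other collagens, beside 0.09 over all probes. Without siBach1 day 0 replicate 3 the fibrillar median was 0.22 and that of the other collagens 0.42. At day 2 the medians were 0.34, 0.59 and 0.05, beside -0.01 over all.

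Col4a5 and Col4a6, which lie head to head on the X chromosome and whose chains form a network of smooth muscle and some epithelial basement membranes, were both higher in siBach1 cells. The Col4a5 values given above put every siBach1 array above every siControl array of its day. The difference was 0.84 ± 0.08 at day 0 (1.79-fold, adjusted p = 9.6e-05) and 0.59 ± 0.08 at day 2 (1.5-fold, adjusted p = 0.0017), and these were among the 3 of 21 silencing results that passed in every fit. The dimmer Col4a5 probe A_51_P216005 gave 0.53 and 0.44 and did not pass (adjusted p = 0.29 and 0.41). Col4a6 was dim, with -4.28, -4.41 and -4.49 in siControl and -3.44, -3.76 and -3.65 with siBach1 at day 0, then -4.27, -4.37 and -3.86 against -3.28, -2.7 and -2.41 at day 2. It had the scanner's mark on 2 of 3 siControl arrays at each day and on all siBach1 arrays. It thus passed the filter only through the siBach1 groups, where it was higher, and its siControl readings lay near background. The difference was 0.78 ± 0.21 at day 0 (1.71-fold, adjusted p = 0.03) and 1.37 ± 0.21 at day 2 (2.58-fold, adjusted p = 0.0033). The day 0 difference lost the threshold without siControl day 0 replicates 1, 2 or 3 or siBach1 day 0 replicates 1 or 3 (adjusted p up to 0.092).

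The stretches upstream of both genes, from the same source, are shown because these neighbours moved the same way.
Col4a5, chrX:141475170-141475369, plus strand: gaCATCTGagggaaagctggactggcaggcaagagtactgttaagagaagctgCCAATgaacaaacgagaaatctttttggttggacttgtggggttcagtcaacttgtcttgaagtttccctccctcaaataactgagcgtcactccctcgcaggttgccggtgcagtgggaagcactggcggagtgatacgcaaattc
Col4a6, chrX:141474096-141474295, minus strand: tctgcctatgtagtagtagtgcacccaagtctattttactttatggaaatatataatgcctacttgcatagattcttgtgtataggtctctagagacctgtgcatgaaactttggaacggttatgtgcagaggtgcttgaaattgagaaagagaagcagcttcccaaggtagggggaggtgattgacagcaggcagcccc
The starts of their RefSeq windows lie 1343 bases apart, with no other gene between the 2 genes. The stretches end at the gene models instead. The Col4a5 stretch holds 1 match each to CANNTG and CCAAT, and the Col4a6 stretch none to any motif searched. Col4a1 and Col4a2 are also head to head, and their windows share 78 bases.

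Of this pair Col4a2 passed the test with silencing and Col4a1 did not. Col4a2 read 2.77, 2.92 and 3.26 in siControl and 3.54, 3.65 and 3.95 with siBach1 at day 0, then 2.86, 2.95 and 3.24 against 3.46, 3.69 and 3.83 at day 2. It was higher in siBach1 cells by 0.73 ± 0.17 at day 0 (1.66-fold, adjusted p = 0.014) and 0.64 ± 0.17 at day 2 (1.56-fold, adjusted p = 0.033). The first lost the threshold without siControl day 0 replicates 1 or 2 or siBach1 day 0 replicate 3 (up to 0.058), the second without siControl day 2 replicates 1 or 2 or siBach1 day 2 replicates 2 or 3 (up to 0.11). Col4a1 read 3.29, 3.4 and 3.5 in siControl and 3.22, 3.14 and 3.15 in siBach1 cells at day 0, a difference of -0.23 ± 0.10 (adjusted p = 0.15), and 3.53, 3.29 and 3.61 against 3.76, 3.59 and 3.75 at day 2, a difference of 0.22 ± 0.10 (adjusted p = 0.19). The change of the Col4a1 effect between days was 0.45 ± 0.14 (adjusted p = 0.10, and 0.045 with the replicate number as a block). The difference between the 2 genes was not tested.

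**Figure D4:**
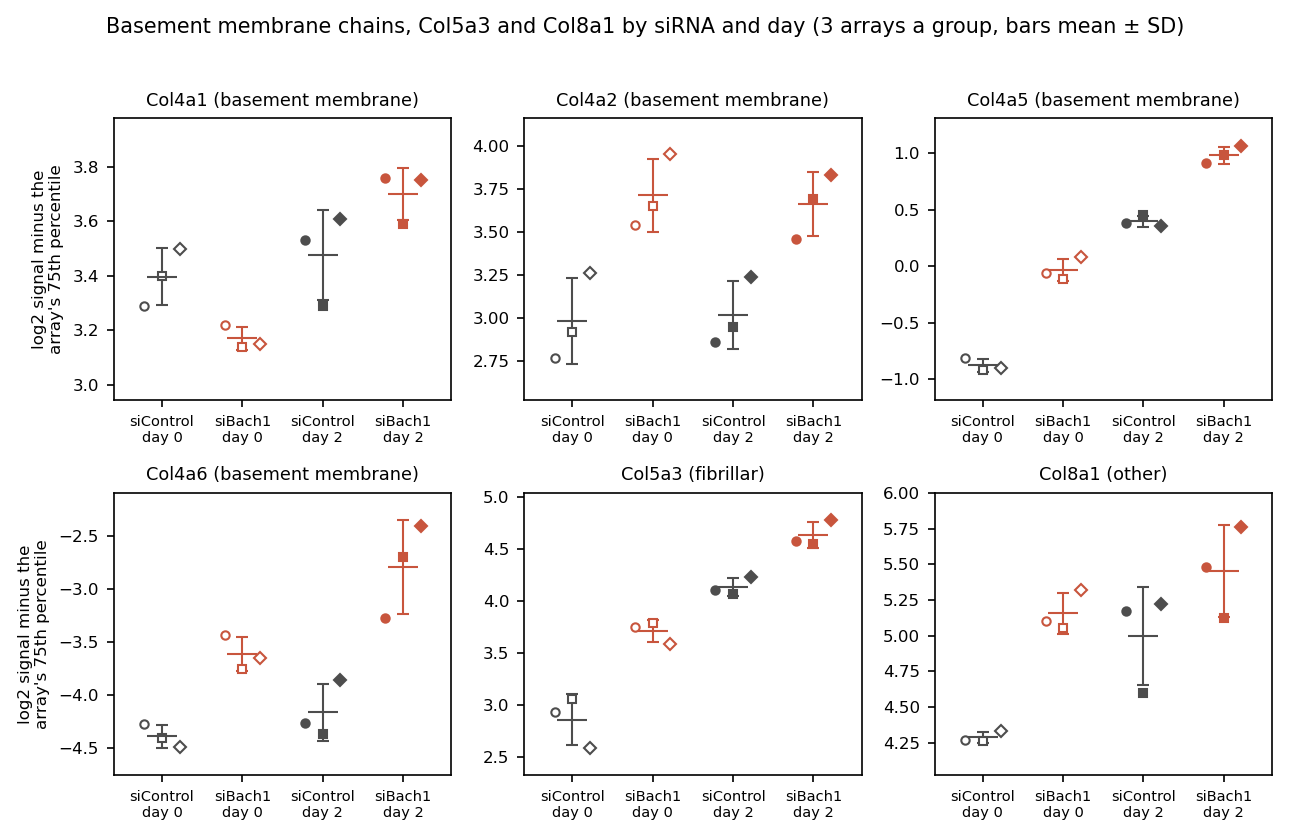
Log2 signal minus the array's 75th percentile (y axis, a scale of its own in each panel) of the brightest probe of Col4a1, Col4a2, Col4a5, Col4a6, Col5a3 and Col8a1, in siControl (grey) and siBach1 (red) cells at day 0 (open) and day 2 (filled). Circles, squares and diamonds are replicates 1, 2 and 3, and bars are the mean ± SD of 3 arrays. In Col4a2, Col4a5, Col4a6 and Col5a3 all red symbols lie above the grey ones of the same day, while Col4a1 has siBach1 below siControl at day 0.

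Among the fibrillar chains Col5a3 had the largest difference that passed the test at day 0. It read 2.94, 3.06 and 2.59 in siControl and 3.75, 3.79 and 3.59 with siBach1 at day 0, then 4.11, 4.07 and 4.23 against 4.58, 4.55 and 4.78 at day 2. The groups did not overlap at either day, and the differences were 0.85 ± 0.13 (1.8-fold, adjusted p = 0.0014) and 0.50 ± 0.13 (1.41-fold, adjusted p = 0.03). The latter lost the threshold without siControl day 2 replicates 1 or 2 or siBach1 day 2 replicates 1, 2 or 3 (up to 0.095). The dimmer Col5a3 probe gave -0.36 and 0.10 and did not pass (adjusted p = 0.67 and 0.93), its siControl day 0 arrays ranging from -3.45 to -0.98. The brightest Col3a1 probe was higher by 0.43 ± 0.09 at day 0 (adjusted p = 0.011) and differed by -0.02 at day 2 (adjusted p = 0.91), the change between days being -0.45 ± 0.13 (adjusted p = 0.082, and 0.045 with the block). The 2 dimmer Col3a1 probes were higher at both days, by 0.79 and 0.77 at day 0 and by 0.66 and 0.81 at day 2, so the probes of this gene did not give 1 answer for day 2. A_55_P2717454 lost the threshold at day 2 without siControl day 2 replicate 1 or siBach1 day 2 replicate 3, where the adjusted p was 0.056 at most. A_55_P2717459 lost it in 8 of the 12 fits without 1 array, at day 0 in all but those without siBach1 day 0 replicates 1 or 2 or replicate 3 of siControl at either day (up to 0.14), and at day 2 in all but those without any siBach1 day 0 array or siControl day 0 replicate 3 (up to 0.13).

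Col5a2 was the single chain that passed the test as lower in siBach1 cells at day 0. Its brightest probe read 0.47, 0.36 and 0.37 in siControl and 0.10, -0.11 and -0.11 in siBach1 cells. The difference was -0.44 ± 0.10 (1.35-fold, adjusted p = 0.012, and 0.053 without siControl day 0 replicate 1). Its second probe gave 0.61 in the other direction (adjusted p = 0.12, and 0.022 with the block), so the direction for this gene rests on the probe. At day 2 they gave -0.06 and 0.43. Col1a2 was higher by 0.29 ± 0.09 at day 0 on its brightest probe (adjusted p = 0.049), which 10 of the 12 fits without 1 array did not pass, all but those without siControl day 2 replicate 1 or 2 (up to 0.15). At day 2 the probe A_55_P2610616 was higher by 0.79 ± 0.22 (adjusted p = 0.045), which 9 of those 12 fits did not pass, all but those without siControl day 0 replicate 3 or siBach1 day 0 replicates 2 or 3 (up to 0.13). At day 0 this probe gave 0.60 (adjusted p = 0.097, and 0.0062 with the block). Col1a1 differed by -0.04 ± 0.14 at day 0 and by 0.33 ± 0.14 at day 2 (adjusted p = 0.87 and 0.15), its probe A_66_P101466 giving 0.34 at day 2 (adjusted p = 0.25, and 0.042 with the block), and Col5a1 by 0.16 and 0.17 (adjusted p = 0.38 and 0.37). Col11a1 was higher at day 2 on all 3 arrays by 1.10 ± 0.35 (2.14-fold), which did not pass (adjusted p = 0.073) but was called with the replicate number as a block (adjusted p = 0.044).

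Of the other collagens, Col12a1 was called higher at day 2. It read 1.3, 0.51 and 1.3 in siBach1 cells against the siControl values above, all siBach1 arrays lying above all siControl arrays, a difference of 1.08 ± 0.27 (2.11-fold, adjusted p = 0.028). The call was lost without siControl day 2 replicates 1 or 2 or siBach1 day 2 replicates 1 or 3 (adjusted p up to 0.10), and the second probe gave 0.88 (adjusted p = 0.084). At day 0 the difference was 0.57 ± 0.27 (adjusted p = 0.18, and 0.015 with the block). Col8a1 read 4.27, 4.26 and 4.33 in siControl and 5.1, 5.05 and 5.32 in siBach1 cells at day 0, a difference of 0.87 ± 0.19 (1.83-fold, adjusted p = 0.011), and 5.17, 4.6 and 5.22 against 5.48, 5.12 and 5.76 at day 2, where the groups overlapped (0.46 ± 0.19, adjusted p = 0.15, and 0.037 with the block). Col6a1 was 0.44 and 0.45 higher (adjusted p = 0.14 and 0.15), and the brightest Col6a2 probe 0.56 and 0.66 higher (adjusted p = 0.14 and 0.11), siBach1 day 0 replicate 3 lying within the siControl range on both. The Col6a2 probe A_55_P2733787 was higher by 0.68 at day 0 (adjusted p = 0.041) and 0.87 at day 2 (adjusted p = 0.02), with overlapping groups at day 0. The former lost the threshold without siControl day 0 replicates 1 or 3, siBach1 day 0 replicates 1 or 2, siControl day 2 replicate 1 or siBach1 day 2 replicates 1 or 2 (up to 0.13), the latter without replicates 1 or 3 of either day 2 group (up to 0.068). The 3 Col6a3 probes lay between -0.36 and 0.26 at day 0 and between -0.37 and 0.46 at day 2, and none passed. Col7a1 was 0.69 ± 0.22 higher at day 0 without overlap (adjusted p = 0.054, and 0.0049 with the block) and differed by 0.05 at day 2 (adjusted p = 0.92).

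**Figure D5:**
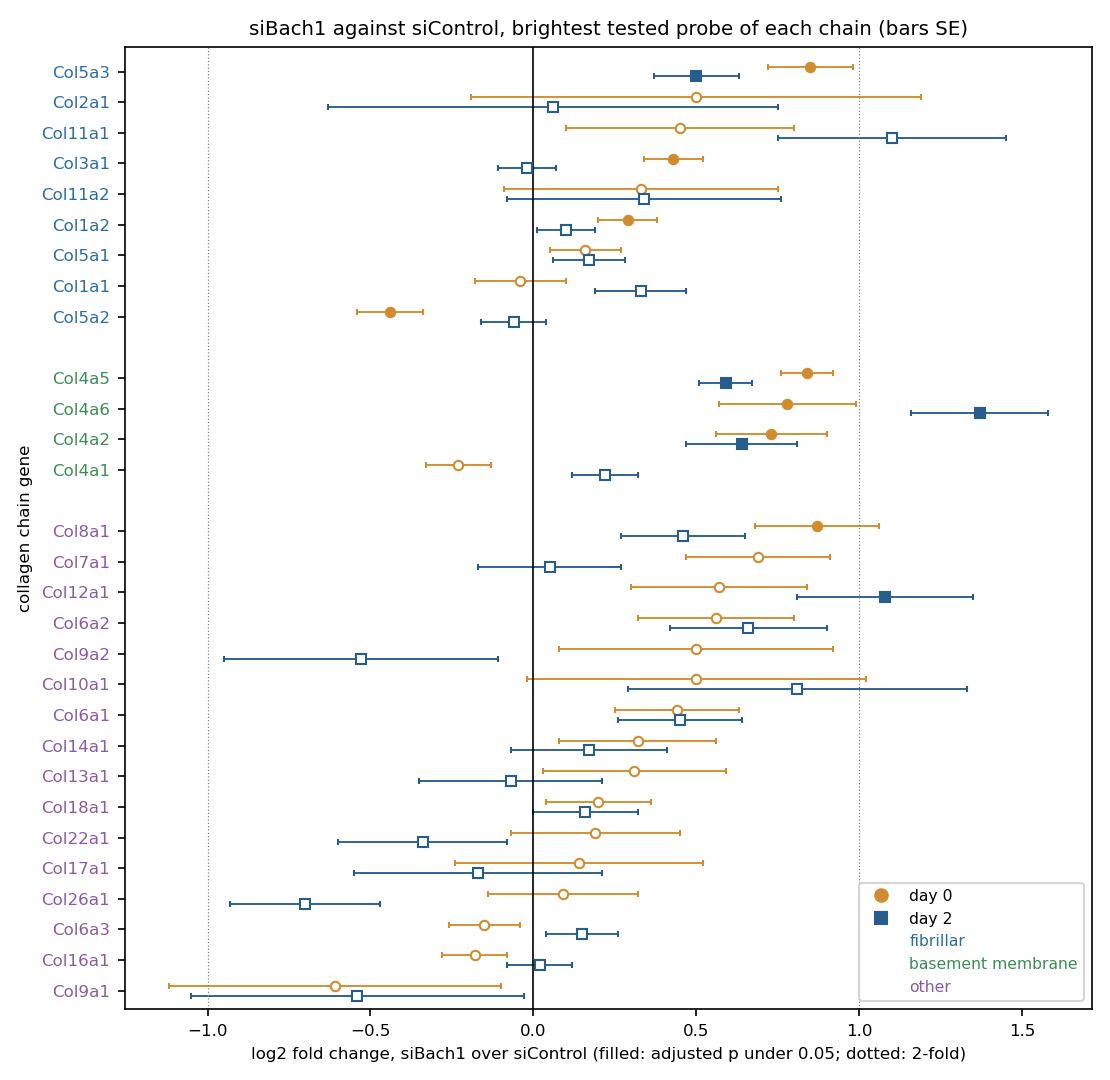
Log2 fold change of siBach1 over siControl (x axis) at day 0 (orange circles) and day 2 (blue squares) for the brightest tested probe of each of 29 collagen genes, grouped by class. Bars are standard errors, filled symbols passed an adjusted p of 0.05 and dotted lines mark 2-fold. Col4a6 (1.37) and Col12a1 (1.08) at day 2 are the filled symbols beyond 2-fold.

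The third question was whether the silencing effect differed between the days. In limma 1 of the 47 collagen probes was called lower and 0 higher, against 0.458% and 0.981% of all probes. At an unadjusted p under 0.05 with the 2-fold limit the counts were also 1 and 0, in limma and in the methods' t-test. Over all 29664 probes that t-test gave 251 lower and 525 higher. The collagen probe called was A_51_P435380 of Col26a1. There siBach1 cells were 0.42 ± 0.21 higher at day 0 (adjusted p = 0.20) and 0.84 lower at day 2 (-0.84 ± 0.21, adjusted p = 0.03), a change of -1.26 ± 0.30 (adjusted p = 0.043). The day 2 difference lost the threshold without any 1 of the 6 arrays of day 2 (up to 0.099). The call for the change was lost when any 1 of 11 arrays was left out, siBach1 day 0 replicate 3 being the exception, with values between -1.43 and -1.03 and an adjusted p up to 0.10. The other Col26a1 probes gave -0.79 and -0.60, each with an adjusted p of 0.18. With the replicate number as a block 2 collagen probes were called lower, the second being Col9a2, a FACIT chain of cartilage, at -1.03 (adjusted p = 0.36 without and 0.016 with the block). By the adjusted p alone the counts were 0 higher and 1 lower (2.39% and 2.20% of all). The medians over the classes were 0.05, -0.09 and -0.01, beside -0.07 over all probes.

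The genes that modify, cut and cross-link collagen were described beside the chains. Of 34 such genes on the array 31 had a tested probe. With differentiation 20 of their 54 tested probes rose and 9 fell in siControl cells (24.6% and 28.7% of all probes), and 19 rose and 15 fell in siBach1 cells (23.8% and 32.3% of all), by the adjusted p. The rises included 3 of the 6 tested genes of propeptide cleavage, out of 8 on the array. Adamts2, which cuts the amino propeptide, rose by 2.25 in siControl and 2.69 in siBach1 cells on its brightest probe, and Adamts14 of the same family by 1.58 and 1.64. Bmp1, which cuts the carboxyl propeptide, rose on 3 probes, by 0.36 and 0.38 on the brightest and by up to 1.14 and 1.07. Pcolce2, an enhancer of that cut, fell by 2.02 and 1.59 on the log2 scale. Loxl1, a cross-linking amine oxidase, rose by 1.45 and 1.48 and Loxl4 fell by 1.21 and 1.12 on the log2 scale on A_66_P107231 and by 0.78 and 0.41 on its brightest probe. The prolyl hydroxylase P3h3 rose by 1.16 and 1.26, the catalytic chain P4ha3 fell by 1.02 in siControl cells (and changed by -0.25 in siBach1 cells, adjusted p = 0.48), and the channel gene Tmem38b, which collagen folding in bone requires, rose by 2.59 and 2.51. The median log2 fold change of the 54 probes was 0.15 in siControl and -0.03 in siBach1 cells, near the 0.00 and -0.07 over all probes.

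With silencing, 1 of the 54 probes was called lower and 0 higher at day 0 (1.98% and 0.809% of all probes), and 2 were called higher and 0 lower at day 2 (1.52% and 0.651% of all), in limma. The 1 at day 0 was Loxl2, another cross-linking oxidase, which was lower in siBach1 cells by 1.66 (-1.66, adjusted p = 1.5e-05) and by 0.69 at day 2 (-0.69, adjusted p = 0.0042). Its second probe gave -0.48 and -0.35. At day 2 the Adamts2 probe A_52_P184042 was called higher at 1.34 (adjusted p = 0.0022) and P4ha3 at 1.02 (adjusted p = 0.039). The brightest Adamts2 probe was higher by 0.75 at day 2 (adjusted p = 0.013), and Adamts14 was lower at both days, by 0.41 and 0.35 (-0.41 and -0.35, adjusted p = 0.0057 and 0.018).

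Receptors for collagen and proteins that coat its fibrils and networks formed a second list. Of 22 genes on the array 16 were tested, with 31 probes. In siControl cells 21 probes rose and 3 fell by the adjusted p, beside 24.6% and 28.7% of all probes, and in siBach1 cells 21 rose and 4 fell, beside 23.8% and 32.3%. The median of the 31 probes was 1.21 in siControl and 1.01 in siBach1 cells, beside 0.00 and -0.07 over all probes. The collagen-binding integrin Itga11 rose by 4.98 and 5.49 and Itga10 by 3.73 and 4.0, and Mrc2, an endocytic collagen receptor, by 1.28 and 1.56. The small proteoglycan Dcn, which coats fibrils, rose by 5.23 and 5.46 and its relative Bgn by 1.21 and 1.17, while Nid1, a basement membrane linker, fell by 1.72 and 1.26 and Nid2 of the same family rose by 1.91 and 2.20. The small leucine-rich proteoglycans Fmod and Prelp rose by 1.58 and 2.33 and by 4.86 and 5.20, the adhesion protein Tgfbi by 2.06 and 2.16 and the basement membrane proteoglycan Hspg2 by 0.97 and 0.85 on its brightest probe. Ddr1, a receptor tyrosine kinase for collagen, rose by 1.28 and 0.42, and the collagen chaperone Sparc by up to 1.25 in siControl and 0.64 in siBach1 cells, with 0.55 and -0.02 on its brightest probe. One probe of the integrin chain Itgb1, which pairs with those alpha chains, was not well above background on any day 0 array and rose at least 7.93-fold and 6.15-fold, while its brighter probes changed by 0.89 and 0.62 (adjusted p = 7e-05 and 0.00079) and by 0.12 and 0.02 (adjusted p = 0.42 and 0.89). Lum was not well above background on any array at day 0, so that its rise was at least 3.95-fold in siControl and 2.52-fold in siBach1 cells (adjusted p = 4.4e-07 and 1.9e-06). With silencing 1 of the 31 probes was called, at day 2 (1.52% of all probes were called higher). It was the dim Nid2 probe A_55_P2732071, higher in siBach1 cells at 1.71 (adjusted p = 0.024). Its siControl mean at day 2 was -5.26, while the lowest signals well above background on those arrays were -5.02, -4.22 and -4.32. The 1.71 was thus counted from a level near background. The brightest Nid2 probe was higher by 0.90 at day 2 (adjusted p = 0.016).

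Markers were read to place these cells. Their linear signals were summed over each list, so that the brightest probes weigh most. Of 7 myoblast and muscle markers 6 had the scanner's mark on all 12 arrays, and the summed signal of the list, in multiples of the array's 75th percentile, went from between 116 and 120 in siControl day 0 to between 742 and 780 in siControl day 2 arrays, and from between 133 and 144 to between 496 and 547 in siBach1 arrays. Of 5 fibroblast markers 3 had it on all arrays and Thy1 on none, with summed signals between 4.51 and 5.65 in siControl day 0, 4.96 and 5.6 in siControl day 2, 4.80 and 5.79 in siBach1 day 0 and 3.68 and 4.40 in siBach1 day 2 arrays. Within that list Dpt rose by at least 4.82-fold and 4.92-fold, Pi16 by 4.47 and 3.47 on the log2 scale, and Twist2 fell by 1.65 and 1.83 on the log2 scale. Pdgfra also rose in both series of cells and was called in siBach1 cells only. For the difference between days 1 of the 4 tested genes was called lower, at -1.01, and 0 higher (0.458% and 0.981% of all probes). The endothelial markers Cdh5, Kdr and Tek and the adipocyte markers Adipoq and Cfd were not well above background on any array. Each of these 2 lists had 1 tested gene. The endothelial one changed by -0.27 in siControl and 0.03 in siBach1 cells with differentiation and did not pass. The adipocyte one was called higher in siControl cells at 1.27 and changed by 0.96 in siBach1 cells, which did not pass. The 4 leukocyte markers had the mark on all arrays (summed signal from 17.1 to 33.6) and 1 of 4 osteoblast markers had it (from 0.752 to 1.73). Of 3 tested osteoblast genes, Dmp1 was called higher with differentiation in siControl cells, by at least 3.59-fold (10.5% of all probes were called higher). In siBach1 cells 1 was called higher, at 2.58 (10.9% of all). With silencing at day 2 the count was also 1, at 1.90 (1.52% of all). In each of these comparisons 0 were called lower. The part of these cell types in the collagen results was not tested.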

How the data were processed

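RNA of C2C12 cells was hybridised to 12 one-colour Agilent arrays, 3 for each of 4 groups taken from the labels. The deposited scanner intensity values (processed signal) are background-subtracted per the file headers, which name scanner software 10.7.3.1, while the submitters' processing notes name Agilent Feature Extraction 9.1. The authors also deposited a table of log2 values, which matched the log2 signal minus each array's 75th percentile and each probe's median within 0.00034 and was used as an alternative. Here outlier spots were removed (76 to 110 an array), repeated spots averaged, the array's 75th percentile subtracted, and probes dropped unless each of the 3 arrays of some group had them well above background. One limma 3.58.1 fit (R 4.3.3) over the 4 groups gave 5 comparisons, with Benjamini-Hochberg adjustment over 29664 probes. On simulated data for silencing at day 2, 86% of 200 changed probes were recovered with 4 false calls. This figure is not split by size. Recovery at the sizes of the collagen silencing differences, the highest of which was 1.37 at day 2, was not tested. Of the collagen probes 70 had a RefSeq accession, and 68 were found in the gene table, all 68 with the same symbol. Arrays of different groups deviated together in all 18 pairs of arrays with the same number (correlation 0.142 to 0.595, against 0.100 to 0.265 for other numbers on the same slide and below 0 between slides), so the replicate number was also fitted as a block. The methods' Student's t-test was run on the same values.

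The members, gene lists and tests were chosen with earlier results of these data known. Chains named were a set of well-known fibrillar, basement membrane, type VI and muscle or matrix chains, every chain called with silencing or in the difference between days, and for differentiation the 5 largest called rises and falls. Each is shown by its brightest probe, with other probes where their sign or call differed. Promoter windows came from RefSeq on GRCm38.p6 for 35 of 44 genes; array coordinates were not used, because the array names an older build.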

Additional observations from a re-analysis of the deposited data

Results flagged for a closer look

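These probes had a silencing effect that differed between day 0 and day 2 in the limma fit. Among the collagen chains this was Col26a1 on A_51_P435380, at -1.26 (adjusted p = 0.043), from 0.42 at day 0 to -0.84 at day 2.

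In the lists of collagen-related genes, the collagen chaperone Serpinh1 went from 0.26 to -0.54, a change of -0.80 (adjusted p = 0.032), and its dimmer probe gave -0.48 (adjusted p = 0.46). P3h4, part of the lysyl hydroxylation machinery, changed by -0.43 on A_51_P450955 (adjusted p = 0.047) and by -0.45 on A_55_P2145696 (adjusted p = 0.038), and gave -0.48 on its other probe (adjusted p = 0.05). The Adamts2 probe A_52_P184042 went from -0.05 to 1.34, a change of 1.39 (adjusted p = 0.021), where its other probes gave 0.44 and -0.08. Loxl2 on A_52_P480351 went from -1.66 to -0.69, a change of 0.98 (adjusted p = 0.012), and gave 0.13 on its other probe. Ddr1 went from 0.23 to -0.63, a change of -0.86 (adjusted p = 0.039). Sparc on A_55_P2046812 went from 0.36 to -0.21, a change of -0.57 (adjusted p = 0.034), and its other probes gave -0.62 and -0.61, which did not pass (adjusted p = 0.059 and 0.35). With 3 arrays a group, no array was tested as an outlier.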

How the results depend on the processing

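Of the 78 results for named collagen chains, 45 passed the threshold under every alternative, 33 lost it under at least 1 and 0 reversed. Of the 21 silencing results 3 passed in every fit, namely Col4a5 at both days and Col5a3 at day 0. The number of arrays and dim signal limit the precision, and the cause of the changes below was not tested except where the setting itself sets it.

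Counts of collagen probes called changed as follows, with the range over fits without 1 array last. Higher at day 2 with silencing was 2, and became 0 with normexp background correction (which compresses folds) and with the t-test after adjustment, 1 without a filter, with the filter on all 12 arrays, with the arrays of the comparison only and on slide 1 alone, 9 without the fold limit, and 1 to 3. Lower at day 2 was 0, and became 1 with quantile normalization and without the fold limit, and 0 to 1. At day 0 the counts of 0 and 0 became 10 and 1 without the fold limit. Higher with differentiation in siControl cells was 14 and became 25 without the fold limit; lower was 3 and became 1 with normexp and with 1 probe per gene, and 2 to 4. In siBach1 cells higher was 16 and became 9 with normexp, 27 without the fold limit and 10 with 1 probe per gene (13 to 16), and lower was 1 and became 3 with quantile normalization and without the fold limit (1 to 2). For the difference between days, lower was 1 and became 0 with normexp, without a filter, with the filter on all 12 arrays, with 1 probe per gene, on slide 1 alone and with the adjusted t-test, 2 with the slide as a block, and 0 to 1. Over all probes, higher at day 2 was 452, and became 125 with normexp, 179 with the adjusted t-test and 369 without a filter. Lower in siControl differentiation was 2807, and became 1750 with normexp and 1502 of 15642 with 1 probe per gene. Higher in siBach1 differentiation was 3241, and became 1656 and 1921 in turn, where 29 collagen genes were tested. Lower for the difference was 136, and became 91 with normexp and 15 without a filter.

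With the replicate block the counts were 3 higher at day 2 with silencing, 15 and 17 higher with differentiation and 2 lower for the difference between days. Over all probes they were 525, 3186 and 3307 higher and 196 lower. Among the tested collagen probes the replicate block changed no call of passing other than those given in the report and those of Col1a2 on A_55_P2715501 (day 2 silencing, 0.52, 0.047 with the block), Col2a1 (day 0 silencing, 0.50, 0.005), Col5a2 (difference between days, 0.38, 0.026), Col1a1 on A_66_P101466 (0.57, 0.035) and Col7a1 (-0.64, 0.046) likewise, Col9a2 in the other 4 comparisons (0.0086 to 0.029), Col13a1 and Col14a1 with differentiation in siBach1 cells (-0.35 and 0.54, 0.016 and 0.018) and Col17a1 with silencing at day 2 (-0.91, 0.033), values after the change being adjusted p.

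Medians moved too. With silencing at day 0 the fibrillar median of 0.43 became 0.27 with normexp (0.22 to 0.44 without 1 array) and the basement membrane median 0.40 (0.62 to 0.76). At day 2 the fibrillar median of 0.34 became 0.43 with quantile normalization and 0.17 with 1 probe per gene, and that of the other collagens 0.16 with the filter on all 12 arrays (0.03 to 0.13). In siControl differentiation the fibrillar median became 0.76 with normexp, and that of the others 0.38 with quantile normalization, 0.32 with normexp and 0.59 with 1 probe per gene (0.37 to 0.53). In siBach1 differentiation the fibrillar median became 1.18 with quantile normalization and 1.08 with 1 probe per gene (0.88 to 1.07), and the basement membrane median 0.39 with normexp and 0.53 with the filter on all 12 arrays. For the difference between days the median of the others became -0.19 with normexp (-0.22 to 0.05), and that of the basement membrane ranged from -0.10 to 0.32.

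In the processing list, 2 called higher at day 2 with silencing became 1 with quantile normalization and 0 with normexp (1 to 2), 4 called lower in siControl differentiation 1 with normexp, 2 called lower in siBach1 differentiation 4 with quantile normalization and 1 with normexp (1 to 4), and 1 higher for the difference between days 0 with normexp (0 to 2). In the receptor and binding list, 1 higher at day 2 became 0 with normexp and 2 with the replicate block (0 to 2), 0 higher at day 0 ranged from 0 to 1, and 3 lower in siControl differentiation became 1 with normexp. Calls over all probes were also fewer with normexp, for example 1927 against 2845 lower in siBach1 differentiation.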
